A study of Mus musculus with 4 samples.

Results

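Cells chosen by genes of nonclassical monocytes made up 60 of the 3567 cells (1.68%) of this bone vessel data set that passed the cell filters, and the name holds for only some of them, mostly in 1 library. They were chosen on measured values: a cell needed at least 3 unique molecular identifiers (UMIs, each standing for 1 captured transcript) summed over Ear2, Fcgr4 and Adgre4, with Ngp and Camp together under 1% of its UMIs and Elane under 0.5%, which keeps out granulocyte precursors. The levels of these genes are therefore a description of the choice, and no gene of the chosen cells was tested. The study profiled cells of mouse bone vessels by droplet single-cell RNA sequencing (10x Genomics Chromium), with 1 library for each of 4 groups. Lineage-negative cells that stained for Endomucin, VE-cadherin and CD31 were sorted, and were divided into a Sca-negative gate, labelled sinusoidal, and a Sca-positive gate, labelled type H vessels. The knockout mice were CDH5-CreER Id1-/- Id3-/-. The control mice, titled wild type, were CDH5-CreER Id1+/+ Id3+/-, so they also carried the endothelial Cre driver and 1 lost allele of Id3. Tamoxifen was injected into the peritoneum to delete Id1, and the sources used here give neither ages nor the number of mice behind a library.

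Monocytes that have left the classical, Ly6C-high state are called nonclassical or patrolling monocytes. In mice they arise largely from classical monocytes, depend on the nuclear receptor Nr4a1 and on C/EBP beta, crawl along the inner wall of blood vessels with the integrin LFA-1, and clear particles and damaged cells there. They carry the Fc receptor Fcgr4 and the fractalkine receptor Cx3cr1, and have little of the chemokine receptor Ccr2.

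The promoters of the genes that chose the cells are shown because those 3 genes define the class. Each window holds 300 bases around the transcript start, from RefSeq, build GRCm38.p6. Ear2, an eosinophil-associated ribonuclease, lies at chr14:44102404-44102703 on the plus strand. Fcgr4, an activating receptor for IgG, lies at chr1:171018676-171018975 on the plus strand. Adgre4, an adhesion receptor of the F4/80 family, lies at chr17:55749734-55750033 on the plus strand. The window of Cd300e, a myeloid surface receptor high in the chosen cells, lies at chr11:115061990-115062289 on the minus strand. Capitals mark either a PU.1-type word, AGGAAGT or its reverse complement, or a C/EBP-type word, TTGCNNAA or its reverse complement TTNNGCAA.
Ear2: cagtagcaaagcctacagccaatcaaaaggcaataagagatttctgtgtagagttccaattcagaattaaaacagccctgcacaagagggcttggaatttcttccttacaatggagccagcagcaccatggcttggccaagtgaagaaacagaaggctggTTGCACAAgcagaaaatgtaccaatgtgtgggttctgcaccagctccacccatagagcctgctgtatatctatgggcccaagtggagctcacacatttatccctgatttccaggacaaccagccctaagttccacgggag
Fcgr4: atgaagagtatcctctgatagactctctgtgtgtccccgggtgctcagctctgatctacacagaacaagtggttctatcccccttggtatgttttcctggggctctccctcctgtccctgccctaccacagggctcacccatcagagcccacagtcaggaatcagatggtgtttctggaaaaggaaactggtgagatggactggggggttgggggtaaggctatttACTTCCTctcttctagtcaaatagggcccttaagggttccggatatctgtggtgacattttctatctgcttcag
Adgre4: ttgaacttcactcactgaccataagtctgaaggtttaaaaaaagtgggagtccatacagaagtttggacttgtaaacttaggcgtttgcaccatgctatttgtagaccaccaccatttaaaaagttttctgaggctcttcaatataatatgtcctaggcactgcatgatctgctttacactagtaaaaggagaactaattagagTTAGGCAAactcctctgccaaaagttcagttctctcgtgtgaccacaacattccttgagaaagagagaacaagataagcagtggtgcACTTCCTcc
Cd300e: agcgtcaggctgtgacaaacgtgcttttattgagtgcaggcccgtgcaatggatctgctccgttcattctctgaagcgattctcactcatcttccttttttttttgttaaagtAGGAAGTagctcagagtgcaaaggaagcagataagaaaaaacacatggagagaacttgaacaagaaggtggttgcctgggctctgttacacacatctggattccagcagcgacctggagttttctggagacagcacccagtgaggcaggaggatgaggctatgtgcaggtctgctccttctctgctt
Counted from the transcript start, the C/EBP-type word began at -90 in Ear2 and at -46 in Adgre4, and the PU.1-type word at -24 in Fcgr4, at 42 in Adgre4 and at -137 in Cd300e. Of all 32851 promoter windows, 9.35% held the PU.1-type word and 10.8% the C/EBP-type word, on either strand. Genes can have several windows, and 10.7% and 12.2% of the 27025 genes held the words in at least 1. Of the 20 genes with the highest ratios given below, 17 matched the promoter table, of which 7 held the PU.1-type word and 3 the C/EBP-type word. The 3 Bcl2a1 copies among them have nearly the same sequence. Among the 20 with the lowest ratios, 15 matched, and 2 held each word. The Nr4a1-type word AAAGGTCA was in 1.51% of windows, in 1.7% of genes and in none of the matched genes of either set. A match is only a match of letters.

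The cells were unevenly spread over the libraries. They made up 10 of 553 cells (1.81%, 95% interval 0.87 to 3.3%) in the sinusoidal knockout library and 42 of 351 cells (12%, 8.76 to 15.8%) in the sinusoidal control library. They made up 6 of 1857 cells (0.323%, 0.119 to 0.702%) in the type H knockout library and 2 of 806 cells (0.248%, 0.0301 to 0.893%) in the type H control library. The share in the knockout library was 0.151 times that in the control library for the sinusoidal gate (0.0676 to 0.306) and 1.3 times for type H vessels (0.233 to 13.2). These are exact binomial and exact conditional intervals that cover counting error only. With 1 library per group and no replicate, library and genotype cannot be told apart, and no difference between groups was tested.

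**Figure D1:**
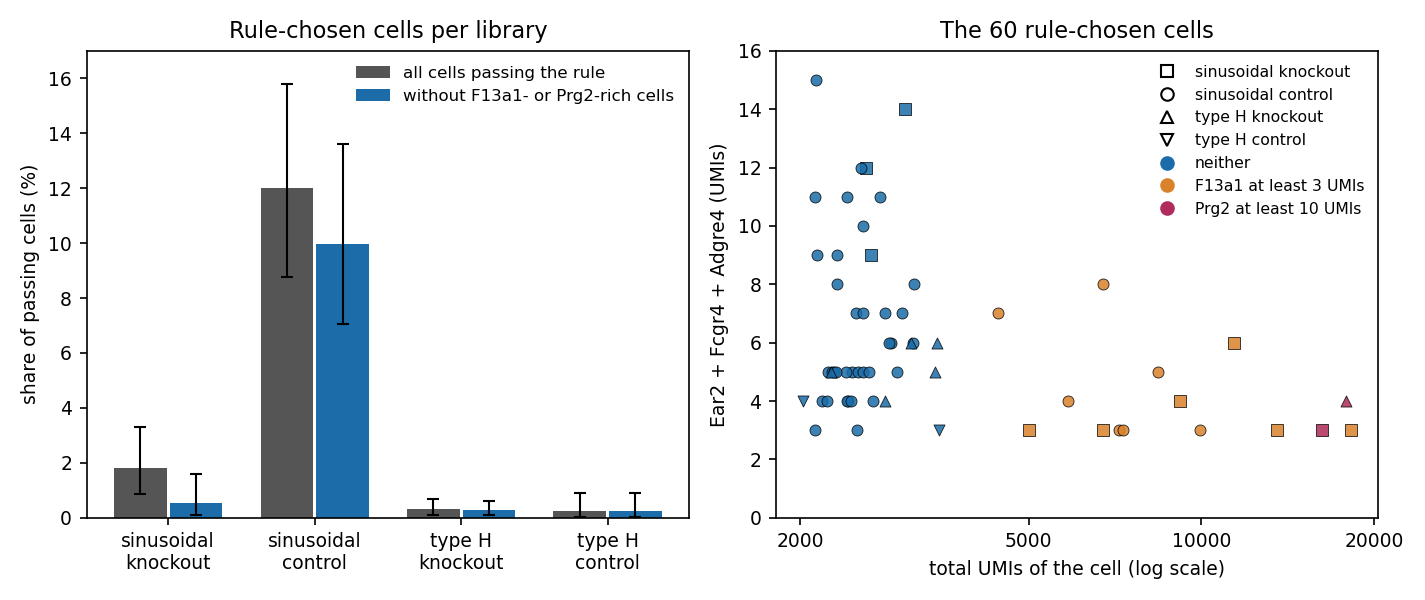
Share of cells in each library that met the choice (left) and UMIs per chosen cell (right), with knockout left of control in each gate. Error bars are exact binomial 95% intervals. The sinusoidal control library stands apart at 12% of its cells, and most of its chosen cells hold few UMIs.

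Depth differed between the libraries. The total count was 8338220 UMIs in the sinusoidal knockout library (median 15428 per passing cell), 3234772 in the sinusoidal control (6142), 11065352 in the type H knockout (5597) and 5703108 in the type H control (6420). Between 0 and 2 cell barcodes were shared by any pair of libraries, and none of them was a chosen cell. Scrublet, a doublet caller, marked 1 to 5 cells per library and no chosen cell, and in the type H libraries it marked under 0.5% of cells. Id3 did not follow the labels: over all passing cells it had 84.8 CPM (counts scaled to 1000000 per library or class; 78.6 to 91.3) in the library labelled sinusoidal knockout and 54.7 CPM (46.9 to 63.5) in the sinusoidal control, and 84.9 CPM (79.6 to 90.5) in the library labelled type H knockout and 33 CPM (28.4 to 38.1) in the type H control. Id1 had 26.3 and 26.1 CPM in the sinusoidal knockout and control libraries, and 2.99 and 4.08 CPM in those of type H. A 3' tag outside the deleted part does not check a deletion, and the genotype labels are used here as the libraries' names.

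The label holds for most chosen cells of the sinusoidal control library and few of the others. To show this, the cells were marked after their values had been seen: cells with at least 3 UMIs of F13a1, a transglutaminase subunit typical of classical monocytes, and cells with at least 10 UMIs of Prg2, the major basic protein of eosinophils. In the sinusoidal knockout library 6 of the 10 cells carried the F13a1 mark and 1 the Prg2 mark, leaving 3 (0.542% of the library, 0.112 to 1.58%). In the sinusoidal control library 7 of 42 cells carried the F13a1 mark and none the Prg2 mark, leaving 35 (9.97%, 7.04 to 13.6%). The Prg2-marked knockout cell held 1830 UMIs of Prg2, 199 of Prg3 and 39 of the eosinophil peroxidase Epx. No chosen cell of the sinusoidal gate had a UMI of the Cd3 genes, which encode signalling chains of the T cell receptor.

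In type H vessels, 4 of 6 knockout cells and 1 of 2 control cells held at least 1 Cd3 UMI. In 1 knockout cell there were 2203 UMIs of Jchain, the joining chain of antibodies made by plasma cells, and 23 of Cd79a, a B cell receptor chain, and it also carried the Prg2 mark with 11 UMIs. Another, which counts as Cd3-holding through 1 UMI of Cd3e, held 25 UMIs of C1qa, a complement gene of macrophages. It also held 93 UMIs of the MHC class II chaperone Cd74. Genes of the class were present too. The cells with a Cd3 UMI held 2 to 6 UMIs of Gngt2. A knockout cell with no Cd3 or Ly6c2 UMI held 5 UMIs of Gngt2, 4 of Pglyrp1 and 65 of Lyz2. The 8 cells are given as counts only.

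None of the 60 cells had a UMI of Cdh5 (VE-cadherin) or Emcn (Endomucin), which encode 2 of the proteins used in the sort. Pecam1, which encodes the third, CD31, had 1 UMI in 1 chosen sinusoidal knockout cell and 8 UMIs in 6 chosen sinusoidal control cells, 1 UMI in the type H knockout cells and none in the type H control cells. In the sinusoidal control library it had 58.1 CPM in the chosen cells and 28.8 CPM in the Lyz2-high cells described below (2.02, 0.773 to 4.74). The summed 12 endothelial markers had 0 to 1 UMI per cell in the sinusoidal knockout cells and 0 to 3 in the sinusoidal control cells, with 11 of 12 and 10 of 12 markers at 0. The macrophage list had 10 of 12 markers at 0 in both. Neutrophil markers summed to 4525 CPM in the chosen sinusoidal knockout cells and 2417 CPM in the control cells, and erythroid markers to 327 and 1539 CPM. Their part in the results below was not tested.

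**Figure D2:**
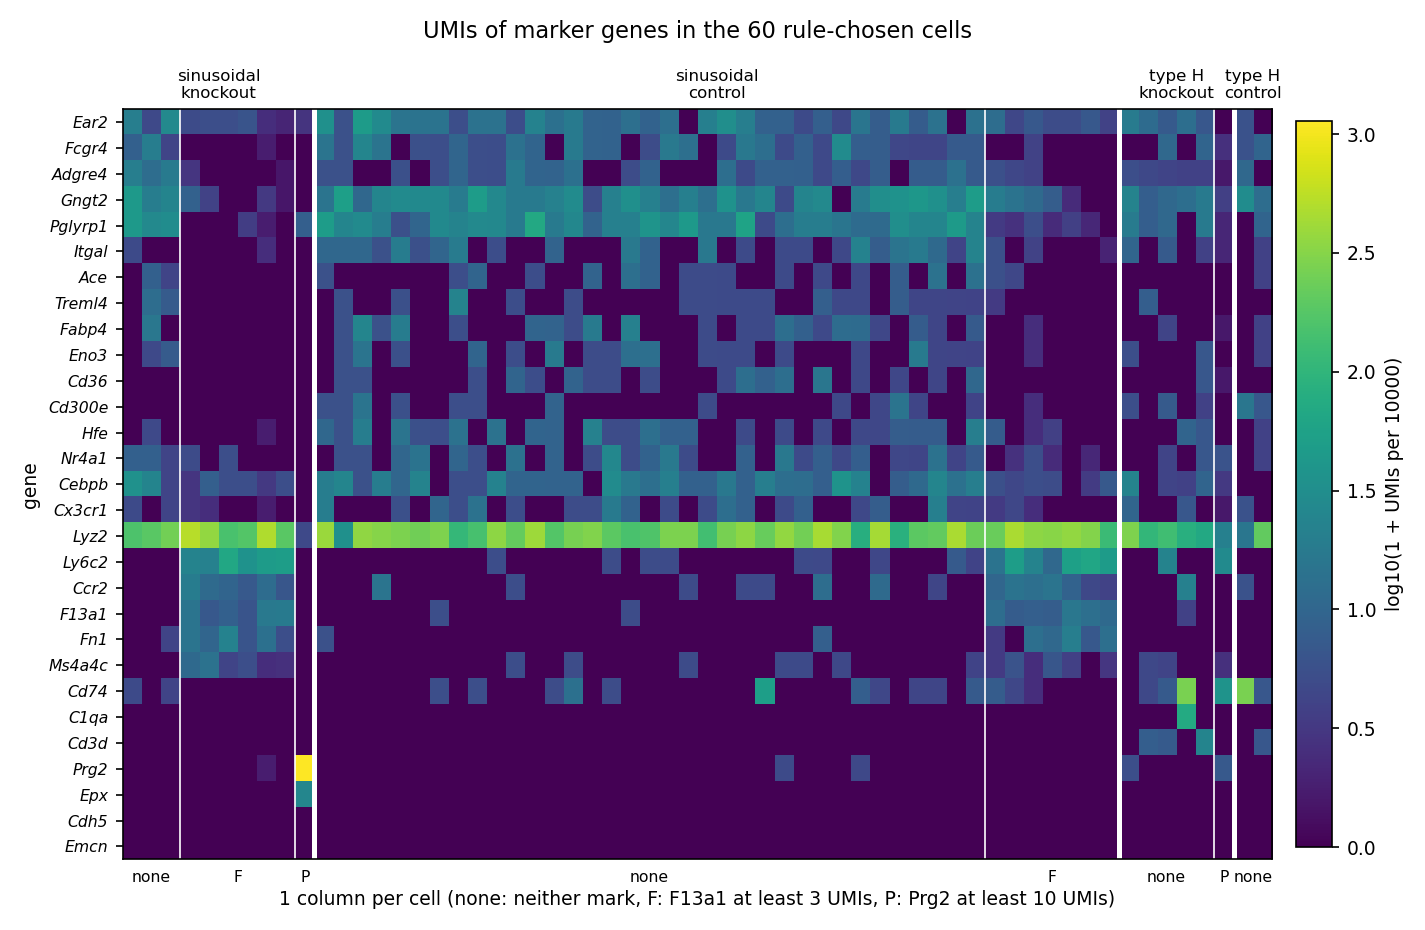
Scaled UMIs of marker genes (rows, log10 scale) in each of the 60 chosen cells (columns), grouped by library and mark. The unmarked sinusoidal cells hold Gngt2 and Pglyrp1 and little Ly6c2, and most F13a1-marked cells hold Ly6c2, Ccr2 and Fn1. Cd3d, the only Cd3 gene shown, appears in type H cells. Macrophage and eosinophil genes are high in few cells.

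Most cells just inside and just outside the threshold of the choice carried classical genes. At a sum of 3, Ly6c2 was seen in 4 of 5 knockout and 3 of 5 control cells of the sinusoidal gate. In the sinusoidal knockout library, the 5 cells with a sum of 3 held 167 CPM of Gngt2 and 2947 CPM of Ly6c2, and the 9 cells with a sum of 2 held 252 and 3222 CPM. In the sinusoidal control library, the 5 cells with a sum of 3 held 757 CPM of Gngt2 and 3166 CPM of Ly6c2, and the 14 cells with a sum of 2 held 435 and 2672 CPM. The cells at a sum of 3 had median UMIs of 13528 in the knockout and 7184 in the control library. The control cells among them without Ly6c2 had 2510 and 2122 UMIs, no F13a1, and 5 and 11 UMIs of Gngt2. The knockout cell without Ly6c2 was the Prg2-marked cell.

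The chosen cells were described against Lyz2-high cells of the same library, which had Lyz2 (lysozyme) at 2% or more of UMIs and fewer than 3 UMIs of the 3 genes. There were 68 such cells (12.3% of cells, 9.68 to 15.3%) in the sinusoidal knockout library, 120 (34.2%, 29.2 to 39.4%) in the sinusoidal control, 4 in the type H knockout and 1 in the type H control. UMIs were summed per class and given as CPM, and ratios carry exact 95% intervals of counting error. In the sinusoidal control library the chosen cells were shallower, with a median of 2537.5 UMIs (2122 to 9945) and 1178 genes, and the Lyz2-high cells had 5789 UMIs (2235 to 12690) and 1973.5 genes. Mitochondrial transcripts were 1.99% and 2.21% of UMIs.

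In the sinusoidal control library, the genes of the choice stood as follows. Ear2 had 994 CPM in the chosen cells and 42.5 CPM in Lyz2-high cells. Fcgr4 had 523 and 15.1 CPM, and Adgre4 had 392 and 9.59 CPM. Ear2 was seen in 40 of the 42 cells. It has near-identical paralogs, but Ear1, Ear6 and Ear10 had at most 4 UMIs each in these 42 cells.

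Gngt2, a G protein gamma subunit that marks these cells and was not used in the choice, had 1735 CPM in the chosen cells and 436 CPM in Lyz2-high cells, a ratio of 3.98 (3.35 to 4.72). It was present in 39 of 42 and 86 of 120 cells. With each cell thinned to 2000 UMIs, 90.5% of the chosen cells and 50% of Lyz2-high cells kept a Gngt2 UMI, and 7.35% of the 68 Elane-rich granulocyte precursors of the library, whose median depth was 17471 UMIs. Per cell, the 35 unmarked cells held 0 to 15 Gngt2 UMIs with a median of 6.

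Over all genes with at least 20 UMIs in both classes together, leaving out the genes used to choose either class, 4618 were measured in the sinusoidal control library. Of these, 352 (7.62%) were at least 2-fold higher and 529 (11.5%) at least 2-fold lower in the chosen cells. In simulated counts for this comparison, with some other genes changed, 15.3% of 4399 unchanged genes also passed 2-fold in either direction. A ratio past 2-fold therefore does not by itself show a difference, here or in the list counts below. The counting interval lay wholly past 2-fold for 63 higher genes (1.36%) and 26 lower genes (0.563%). The 20 highest and 20 lowest ratios among these are the named genes. They were taken from the cells that were chosen, so they are a description and carry no test.

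Genes of lipid handling were among the highest ratios. Fabp4, a fatty acid carrier that endothelium also makes, had 48 UMIs in 23 of the 42 chosen cells and none in the 120 Lyz2-high cells. The ratio is 84.8 when the Lyz2-high sum is set to 3 UMIs, and its exact interval starts at 66.3. Cd36, a scavenger receptor for lipids, had 218 CPM in the chosen cells and 6.85 CPM in Lyz2-high cells (31.8-fold, 12.2 to 105). Pparg, a fatty acid sensing nuclear receptor outside the lipid list, had 145 and 9.59 CPM (15.1-fold), and the phospholipid transfer protein Pltp 160 and 17.8 CPM (8.97-fold). Of 10 measured genes of the lipid list, 4 were at least 2-fold higher and 1 lower, with a median log2 ratio of 0.72, where the median over all genes was 0.02. The lower gene was Npc2, a lysosomal cholesterol carrier, at 842 and 1860 CPM. Apoe was high in both classes, at 5248 and 4107 CPM.

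The survival genes of the Bcl2a1 group followed. Bcl2a1b had 377 CPM in the chosen cells and 11 CPM in Lyz2-high cells (34.4-fold, 16.2 to 83.9), Bcl2a1d 189 and 12.3 CPM, and Bcl2a1a 116 and 6.85 CPM. These copies are nearly identical, so how reads were split among them is uncertain. Mcl1, another pro-survival relative, had 348 and 200 CPM (1.74-fold, 1.23 to 2.43). Among 11 measured genes of the Bcl2 family list, 5 were at least 2-fold higher and 1 was lower, Bad, with a median log2 ratio of 0.81. The fifth higher gene beside the 3 Bcl2a1 copies and Bcl2 was Pmaip1, which promotes cell death, at 109 and 49.3 CPM.

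Surface receptors and enzymes made up most of the rest. Cd300e, an activating receptor, had 145 CPM in the chosen cells and 4.11 CPM in Lyz2-high cells (35.3-fold, 10.5 to 186), and Cd300ld had 240 and 5.48 CPM. Ace, the angiotensin-converting enzyme, had 232 and 9.59 CPM (24.2-fold, 10.5 to 65). Treml4, a receptor that binds dead cells, had 181 and 15.1 CPM, and Hfe, a regulator of iron uptake, 428 and 30.1 CPM (14.2-fold, 8.58 to 24.4). Eno3, a muscle-type enolase, had 247 and 2.74 CPM (90.1-fold, 23.1 to 774). Pglyrp1, a peptidoglycan-binding protein, was the most abundant at 1590 and 127 CPM (12.5-fold, 9.75 to 16.1). It is also a granule gene, present after thinning in 90.5% of the chosen cells, 19.2% of Lyz2-high cells and 82.4% of Elane-rich cells. The others were Sh2d1b1, Zfp36l1, St3gal5, Fam134b, Cd82 and Rbpms, with ratios from 8.12 for Rbpms to 15.9 for Sh2d1b1.

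**Figure D3:**
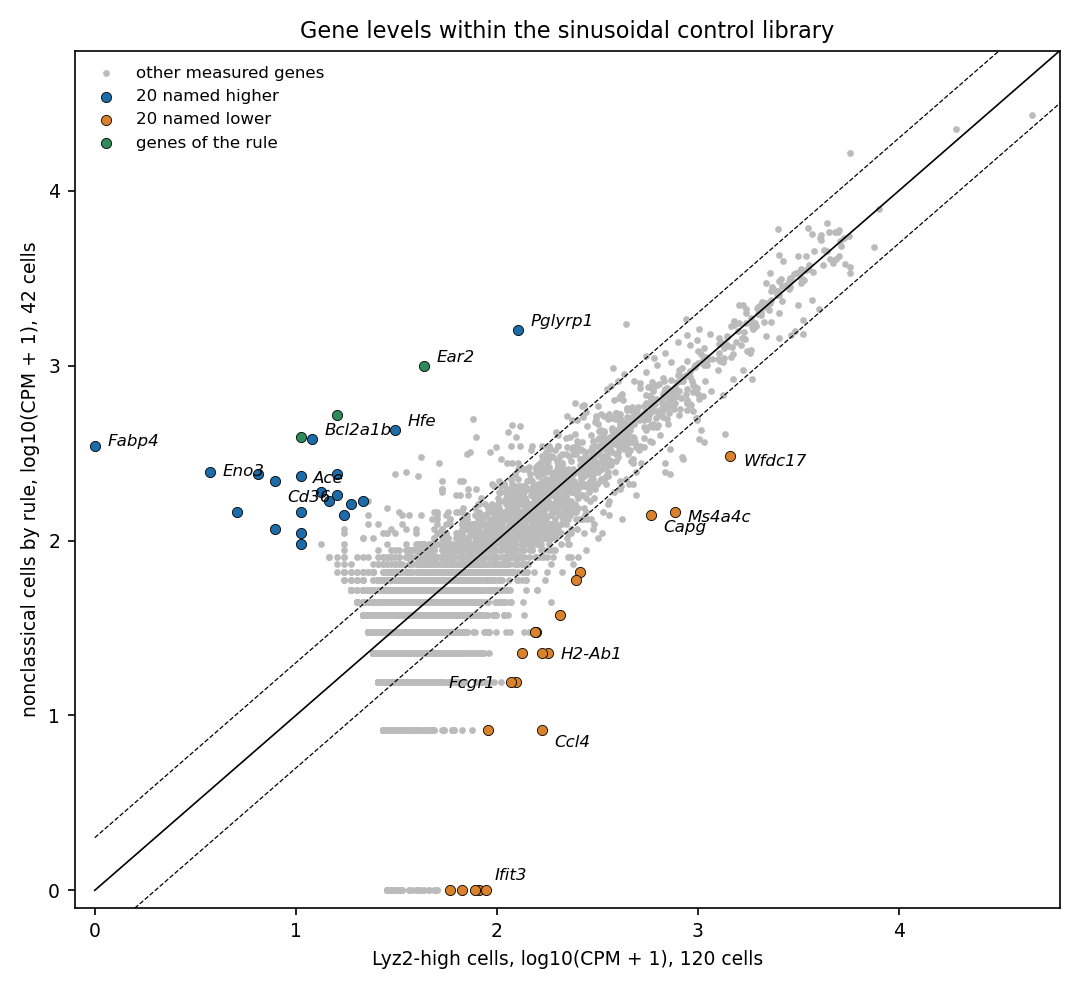
CPM of each measured gene in the 42 chosen cells (vertical) and the 120 Lyz2-high cells (horizontal) of the sinusoidal control library, log10 of CPM plus 1. Dashed lines mark 2-fold. Among the 20 named higher genes (blue), Pglyrp1 at 127 CPM and Hfe at 30.1 CPM have the highest levels in Lyz2-high cells.

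The known regulators of the class were higher by smaller factors. Nr4a1 had 414 CPM in the chosen cells and 112 CPM in Lyz2-high cells (3.68-fold, 2.58 to 5.23). Cebpb had 973 and 378 CPM (2.57-fold, 2.08 to 3.17), and Pou2f2, a lymphoid and myeloid octamer factor, 457 and 118 CPM (3.88-fold, 2.76 to 5.43). Klf2, a factor of quiescence, had 1111 and 603 CPM (1.84-fold, 1.52 to 2.22). Cebpa, which drives early myeloid commitment, ran the other way at 43.6 and 115 CPM (0.378, 0.135 to 0.859). Of the 9 measured Nr4a, Klf and C/EBP factors, 2 were at least 2-fold higher and 1 lower, where 7.62% and 11.5% of all measured genes were.

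Adhesion genes lay on both sides. Itgal, the alpha chain of LFA-1, had 494 CPM in the chosen cells and 75.3 CPM in Lyz2-high cells (6.55-fold, 4.52 to 9.52), and its partner Itgb2 508 and 266 CPM. Itga4, the alpha chain of VLA-4, had 312 and 69.9 CPM (4.47-fold, 2.91 to 6.84) and Itgb1 203 and 95.9 CPM. Cx3cr1 had 327 and 147 CPM (2.23-fold, 1.54 to 3.18), and Cxcr4, the receptor that holds cells in bone marrow, 138 and 49.3 CPM. Ccr2, which releases monocytes from marrow, had 406 and 1366 CPM (0.298, 0.223 to 0.39). Of 14 measured members, 6 were at least 2-fold higher and 2 lower, with a median log2 ratio of 0.84. The shares over all measured genes were 7.62% and 11.5%.

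Of 20 measured genes of the nonclassical identity list, taken from earlier results of these data and general knowledge, 18 were at least 2-fold higher and none lower (median 1.92). The remaining members were Klf2 and Clec4a1. Csf1r, the receptor for the survival factor M-CSF, had 610 CPM in the chosen cells and 245 CPM in Lyz2-high cells. Spn, which encodes CD43, had 116 and 34.2 CPM. Genes that all monocytes carry were nearer to even, with a median log2 ratio of 0.14 over 20 members, 2 of them at least 2-fold higher and 4 lower. The lower ones included Lgals3, a galectin, at 1517 and 3340 CPM, and Aif1 and Cebpa, each under 50 CPM in the chosen cells. The higher ones were Lst1, at 1836 and 874 CPM, and Cst3, a secreted protease inhibitor, at 6039 and 2502 CPM. Fcer1g, the signalling chain of Fc receptors, had 6112 and 3525 CPM. Fcgrt, the neonatal Fc receptor, had 189 and 52.1 CPM, and Fcgr1, the high-affinity IgG receptor, 14.5 and 123 CPM (0.118, 0.014 to 0.438).

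Classical monocyte genes were lower. Of 12 measured members 7 were at least 2-fold lower and none was higher, with a median log2 ratio of -1.07. F13a1 had 377 CPM in the chosen cells and 1011 CPM in Lyz2-high cells, and Fn1, fibronectin, 363 and 1070 CPM (0.339, 0.25 to 0.452). Ms4a4c had 145 and 767 CPM (0.189, 0.115 to 0.295). Ly6c2, the surface antigen that names the classical state, had 1488 and 2910 CPM (0.511, 0.441 to 0.59), just inside the 2-fold line. Other lower genes were Wfdc17, a secreted protease inhibitor, at 305 and 1451 CPM, and Capg, an actin capping protein, at 138 and 581 CPM (0.237, 0.142 to 0.375). The named set also held Ier3, Iqgap2, Pydc4, Rgs18, Ms4a8a, Pkib, Cndp2, Tmem176b, Eif2a, Rgs10 and AI839979.

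MHC class II genes were lower in sum, but few cells carried the difference. H2-Ab1 had 21.8 CPM in the chosen cells and 179 CPM in Lyz2-high cells (0.121, 0.0247 to 0.362), and Cd74 240 and 723 CPM (0.331, 0.226 to 0.471). Of 6 measured members 5 were at least 2-fold lower (median -1.88). The 120 Lyz2-high cells held 1083 UMIs of the list, 71.6% of them in 10 cells and 237 in 1 cell. Per cell the median was 1 UMI in the chosen cells and 3 in the Lyz2-high cells. Of 9 measured MHC class I genes 2 were at least 2-fold higher and 1 was lower (median 0.61). H2-D1 had 4304 and 2541 CPM (1.69-fold, 1.54 to 1.86) and H2-K1 1176 and 682 CPM. The higher ones, H2-Q4 and H2-Q7, have close copies and are uncertain.

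Interferon response genes were lower in the chosen cells, with 9 of 15 measured members at least 2-fold lower, none higher and a median log2 ratio of -1.27. Ifit3 had no UMI in the chosen cells and 64 in 11 of the 120 Lyz2-high cells. It was 4.03-fold lower when the empty sum is set to 3 UMIs, with an exact interval of the ratio up to 0.314. Ifit2 likewise had none and 42, also in 11 cells. Isg15, a ubiquitin-like modifier, had 29 and 153 CPM (0.189, 0.0507 to 0.498), and this ratio turned round when the choice was widened to 2 UMIs (log2 of 0.75). With that wider choice the list median was -0.01. Irf7, the amplifier of the response, had 65.3 and 177 CPM. Ifitm3, a membrane protein that blocks virus entry, was abundant in both at 3803 and 5417 CPM (0.702, 0.64 to 0.769).

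Among inflammatory genes 1 of 11 measured members was at least 2-fold higher and 5 were lower (median -0.97). The higher one was Il1b, the inflammatory cytokine, at 298 CPM in the chosen cells and 41.1 CPM in Lyz2-high cells (7.24-fold, 4.41 to 12), with UMIs in 16 and 14 cells. The chemokines were lower: Ccl4 had 1 UMI against 121 (0.0438, 0.0011 to 0.249), Ccl3 298 and 832 CPM, Ccl2 43.6 and 186 CPM, and Cxcl2 160 and 355 CPM. Immediate-early genes, which tissue handling is known to induce, had 1 of 11 members at least 2-fold higher and 2 lower (median 0.31). These counts are near the shares over all measured genes, 7.62% and 11.5%. Jund had 595 and 271 CPM, Dusp1 1365 and 793 CPM, Fos 1684 and 1952 CPM, and Atf3 138 and 360 CPM. S100 and annexin genes had a median of -0.43, with S100a10 at 276 and 688 CPM and Anxa1 at 131 and 293 CPM. Cell cycle genes had a median of 0.04 over 13 members, but the value moved with the cells included: the median was -1.34 without the 7 F13a1-marked cells, and 1.21 with the choice widened to 2 UMIs. Stmn1, a microtubule regulator of dividing cells, had 35 UMIs in those 7 cells and 4 in the other 35.

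**Figure D4:**
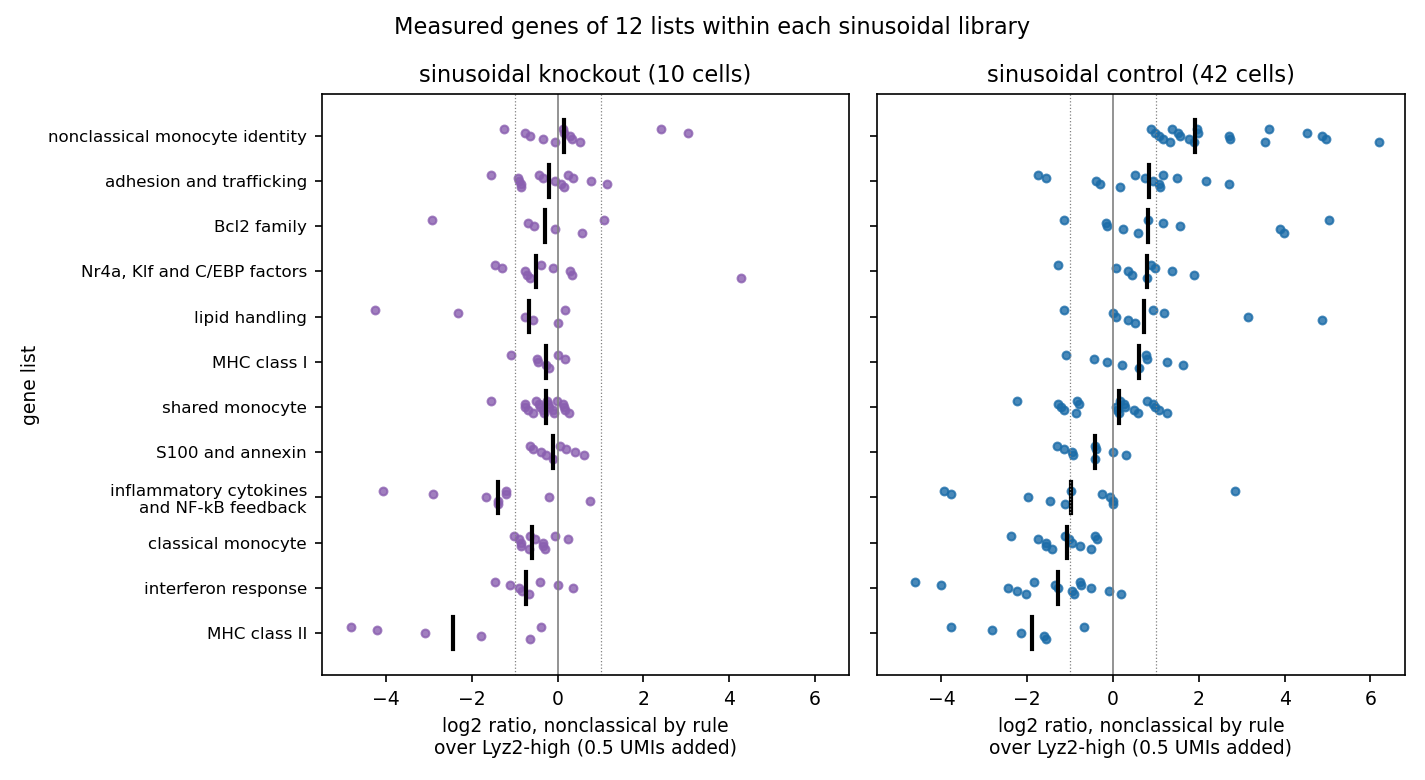
Log2 ratio of chosen over Lyz2-high cells for each measured gene of 12 lists (points) with the list median (bar), in the sinusoidal knockout library (left) and the sinusoidal control library (right). Dotted lines mark 2-fold. In the control library the nonclassical identity list has its median at 1.92 and the classical list at -1.07, and in the knockout library at 0.15 and -0.59.

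The chosen cells of the sinusoidal control library divided by the F13a1 mark. The 35 unmarked cells had 2122 to 3159 UMIs each and the 7 marked cells 4419 to 9945. Gngt2 had 2388 CPM in unmarked cells, 582 CPM in marked cells and 436 CPM in Lyz2-high cells. Pglyrp1 had 2388, 181 and 127 CPM, and Itgal 716, 100 and 75.3 CPM. Bcl2a1b had 591, 0 and 11 CPM, and Cd36 had 341, 0 and 6.85 CPM. Classical genes ran the other way. Ly6c2 had 114 CPM in unmarked cells, 3913 CPM in marked cells and 2910 CPM in Lyz2-high cells, and Chil3, a chitinase-like secreted protein, 125, 9091 and 5703 CPM. Capg had no UMI in the 35 unmarked cells. For these genes the 7 marked cells lay near the Lyz2-high cells, so the sums over all 42 cells are mixtures. Other genes lay further apart. Stmn1 had 702 CPM in marked and 278 CPM in Lyz2-high cells, Apoe 1465 and 4107 CPM, and Ms4a4c 261 and 767 CPM. Without the marked cells the median log2 ratio of the classical list was -4.23. F13a1, which sets the mark, is itself in that list, so this fall is no independent sign of a division.

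**Figure D5:**
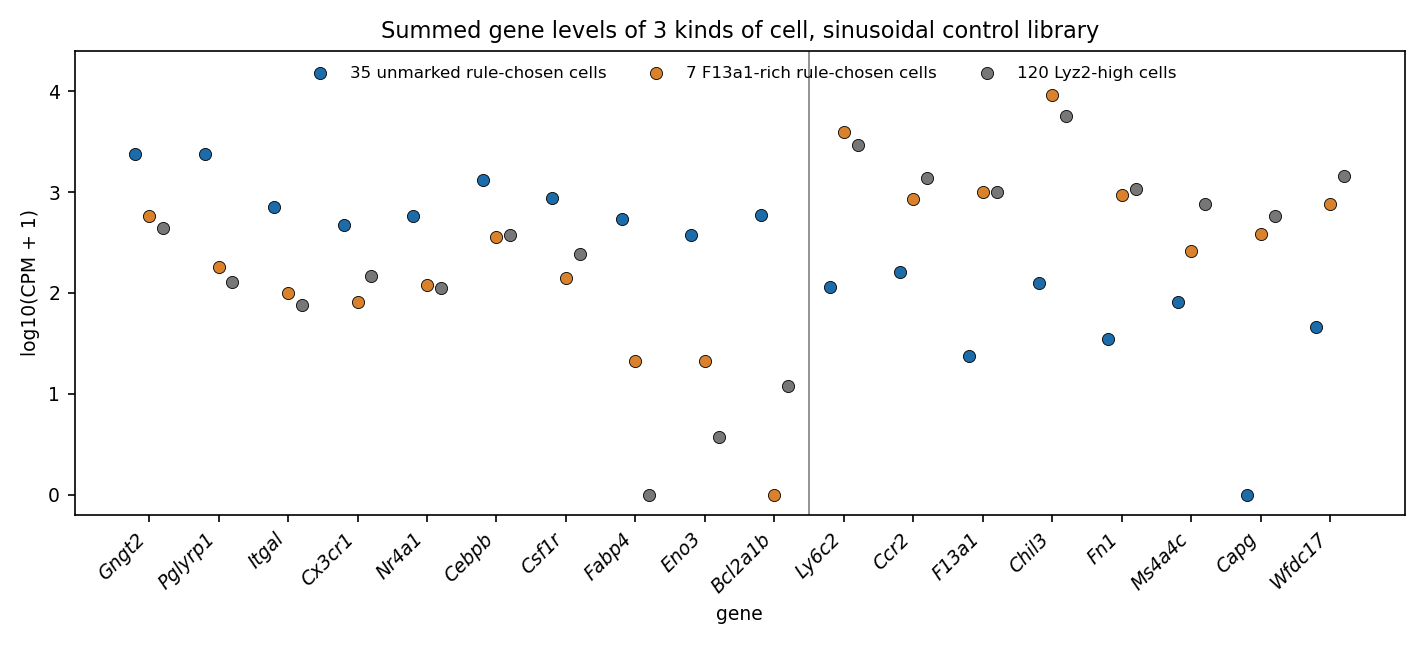
CPM of selected genes in the unmarked and F13a1-marked chosen cells and the Lyz2-high cells of the sinusoidal control library. The marked cells follow the Lyz2-high cells for Gngt2 (582 and 436 CPM) and Ly6c2 (3913 and 2910 CPM), and less so for Ms4a4c (261 and 767 CPM). The mark was set by F13a1, which is among the genes shown.

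In the sinusoidal knockout library 3647 genes were measured between the 10 chosen and 68 Lyz2-high cells, of which 198 (5.43%) were at least 2-fold higher and 434 (11.9%) lower. The genes of the choice had 406 CPM (Ear2), 102 CPM (Fcgr4) and 169 CPM (Adgre4) in the chosen cells, and 41.7, 3.79 and 7.58 CPM in Lyz2-high cells. Gngt2 had 372 CPM in the chosen cells and 262 CPM in Lyz2-high cells (1.42, 0.943 to 2.09), Itgal 33.9 and 39.8 CPM, and Ly6c2 3126 and 3249 CPM. Of 12 measured nonclassical identity genes, 2 passed 2-fold upwards and 1 downwards (median 0.15). Of 16 cell cycle genes 7 were higher and 1 lower (median 0.86), with Stmn1 at 1252 and 736 CPM. Of the 20 genes named as higher in the control library 1 was measured in the knockout library, Pglyrp1, and it was higher there too. Of the 20 named as lower, 16 were measured. Of these 14 had a ratio under 1, 6 were at least 2-fold lower (11.9% of all genes were), and 4 had an interval wholly under 1: H2-Ab1, Ms4a8a, Ms4a4c and Wfdc17.

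The 3 unmarked cells of the sinusoidal knockout library looked different from the other 7. They had 2659, 2608 and 3043 UMIs, sums of 9, 12 and 14 UMIs for the genes of the choice, 5, 11 and 7 UMIs of Gngt2, and 7, 11 and 9 of Pglyrp1. None had a UMI of Ly6c2, Ccr2 or F13a1. These cells had the highest sums of the 10. The sums are the values of the choice, and little F13a1 is what the missing mark means. Neither is therefore a separate trait of these cells. Set against the 35 unmarked control cells, Gngt2 had 2768 CPM in the knockout and 2388 CPM in the control cells (ratio 1.16, 0.719 to 1.79), and Pglyrp1 3249 and 2388 CPM (1.36, 0.876 to 2.04). Nr4a1 had 602 and 580 CPM, Cebpb 1925 and 1319 CPM, and Csf1r 1083 and 876 CPM, each with an interval that holds 1. Itgal had 120 CPM, from 1 UMI, and 716 CPM (0.168, 0.00419 to 0.971), and Adgre4, a gene of the choice, 1564 and 546 CPM (2.87, 1.42 to 5.37). H2-D1 had 2407 and 5560 CPM (0.433, 0.262 to 0.676), Apoe 3730 and 7391 CPM (0.505, 0.34 to 0.724), and Plac8 1805 and 739 CPM (2.44, 1.29 to 4.33). Other list genes also had intervals that left out 1, among them Junb (0.191, 0.0228 to 0.705), Dusp1 (0.452, 0.179 to 0.952) and Fth1 (1.59, 1.14 to 2.16). The genes given here were not picked by a rule, and the share of list genes with such intervals was not counted. Among many list genes, some intervals leave out 1 through counting error alone. These intervals therefore do not by themselves show that a gene differs between the unmarked cells of the 2 libraries, and no difference was tested. All these values rest on 8310 UMIs in 3 cells of 1 library.

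Set directly against each other, the chosen cells of the sinusoidal gate had 1634 measured genes, of which 191 (11.7%) were at least 2-fold higher and 289 (17.7%) lower in the knockout library. The interval lay wholly past 1.5-fold for 79 higher genes (4.83%) and 120 lower genes (7.34%). The mix of cells moved with this comparison. Of the 10 knockout cells 6 carried the F13a1 mark, and of the 42 control cells 7 did. Its part in the ratios was not tested. The highest ratios came from 1 cell: Prg2 had 1831 UMIs in the knockout cells, 1830 of them in the Prg2-marked cell, and 2 in the control cells. Prg3 and Epx came wholly from it, as did 37 of 40 UMIs of Cd63, a granule membrane protein, and 31 of 33 of Nkg7. Serpinb1a and Cdca8 had 5 UMIs each in that cell, of 20 and 25.

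The 8 named lower genes included several that were high in the class within the control library. Cd36 had no UMI in the 10 knockout cells and 30 in the 42 control cells. It was 6.43-fold lower when the empty sum is set to 3 UMIs, with an exact interval of the ratio up to 0.203. Bcl2a1d (5.57-fold, interval up to 0.237), Ptp4a3 (4.5-fold, up to 0.299), and Cd300e, Pparg and Slc11a1 (each 4.29-fold, up to 0.315) were also empty in the knockout cells. Hfe had 22.6 CPM in the knockout cells and 428 CPM in the control cells (0.0527, 0.00624 to 0.199), and Pla2g7, a lipase that degrades platelet-activating factor, 11.3 and 290 CPM (0.0389, 0.00096 to 0.229). Of 17 measured identity genes 16 were at least 2-fold lower and none was higher (median log2 ratio -2.20, and 0.03 over all genes). Genes outside the identity list were lower as well, among them 8 of 10 immediate-early, 7 of 17 shared monocyte and 4 of 4 erythroid genes. Of 11 classical genes 5 were higher and none was lower (median 0.64), and of 10 cell cycle genes 9 were higher (median 2.15). Chil3 had 9230 and 3368 CPM in the knockout and control cells. Only 3 of the 10 knockout cells were unmarked. Between these and the 35 unmarked control cells, the ratio intervals of Cd36, Bcl2a1d and Cd300e reached 1.38, 1.68 and 2.27. Those intervals hold 1, so a lower level in unmarked knockout cells is not shown for these genes.

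Of the targeted genes, Id1 was sparse in these cells and Id3 was seen in more of them. Id1 had 10 UMIs in 4 of the 10 knockout cells (113 CPM, 54.1 to 208) and 9 UMIs in 6 of the 42 control cells (65.3 CPM, 29.9 to 124). Id3 had UMIs in 8 of the 10 knockout cells (260 CPM, 165 to 389) and in 18 of the 42 control cells (181 CPM, 117 to 268). Within the control library Id1 had 65.3 CPM in the chosen and 19.2 CPM in the Lyz2-high cells (3.41-fold, 1.3 to 8.45), though only 2 of its 9 UMIs lay in the 35 unmarked cells. Within the knockout library Id1 had 113 and 45.5 CPM, and none of its 10 UMIs lay in the 3 unmarked cells.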

How the data were processed

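Single-cell RNA was counted as UMIs per gene and barcode in 4 libraries, 1 per group. The matrices the authors deposited hold raw UMI counts. Seurat, Cell Ranger and mm10 appear in the submitters' processing notes, and the sources used here give no tool versions. Of the 27998 gene rows, those sharing a symbol were summed, giving 27933 symbols. Barcodes needed at least 200 genes and under 10% mitochondrial UMIs. Counts were summed per library and class and divided by the class total (CPM). Intervals are 95%: exact Poisson for CPM, Clopper-Pearson for shares, exact conditional for ratios. They cover counting error only, and with no replicates no test was run. Log2 ratios add 0.5 UMIs to each sum. For fold values an empty sum is set to 3 UMIs over the class, which leaves out the counting error of the other sum. Genes needed 20 UMIs over both classes. Named genes were the 20 highest and 20 lowest ratios within the sinusoidal control library whose interval lay past 2-fold, and up to 8 per direction past 1.5-fold between libraries of the sinusoidal gate, besides members of the gene lists. The ratio and interval code was tested on simulated data. The cells, lists and rules were chosen with earlier results of these data known. List symbols not matched in the matrices (5) are not analysed here. Python 3.11.15, numpy 2.4.6, scipy 1.17.1, pandas 2.3.3 and scanpy 1.11.5 were used. Alternatives changed the thresholds, filters, gene minimum, scaling and thinning depth.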

Additional observations from a re-analysis of the deposited data

Results flagged for a closer look

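Each result here has effects on opposite sides in the groups compared, and none of these differences was tested. The share of chosen cells in the knockout over the control library was 0.151 for the sinusoidal gate and 1.3 for type H vessels, where the interval (0.233 to 13.2) holds 1.

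The other values are ratios of chosen over Lyz2-high cells whose counting intervals lay on opposite sides of 1 in the sinusoidal knockout and control libraries. Most were lower in the knockout and higher in the control library. Apoe, a lipid carrier, had 0.199 in the knockout and 1.28 in the control library. The lectin receptors Clec4a1 and Clec4a3 had 0.4 and 0.565 in the knockout and 1.97 and 2.09 in the control library. The protease gene Ctss and the oxidase subunit Cybb had 0.588 and 0.611 in the knockout and 1.21 and 1.41 in the control library. Among fast-responding regulators, Dusp1 had 0.438 in the knockout and 1.72 in the control library, Zfp36 0.496 and 1.34, Klf6 0.384 and 1.71, Klf2 0.634 and 1.84, and Btg1 0.551 and 1.21. The MHC class I gene H2-D1 had 0.731 in the knockout and 1.69 in the control library. Plac8 ran the other way, with 1.18 in the knockout and 0.702 in the control library. In the knockout library 6 of the 10 chosen cells carried the F13a1 mark and 1 the Prg2 mark, and in the control library 7 of 42 carried the F13a1 mark. The part of this mix in these ratios was not tested.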

How the results depend on the processing

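Results were recomputed under 18 settings, 15 planned and 3 added after seeing the data (those that leave out marked cells). No paired analysis was possible because each group is 1 library. Of 976 single-gene values 833 stayed within 1 log2 unit, 141 moved and 2 turned round: Isg15 to 0.75 with a minimum of 2 UMIs, and Prg2 (knockout over control) to -0.16 with a minimum of 5. Of 356 list medians 341 held, of 104 gene counts 74 and of 48 shares 39. The cause of the other changes was not tested, beyond fewer cells or genes entering. Leaving out Scrublet-marked cells could not move gene values or list medians, because no chosen and no Lyz2-high cell was marked. No chosen sinusoidal cell held a Cd3 UMI, so leaving out Cd3-holding cells removed none of them. The values counted as held include those from these settings.

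With a minimum of 2 UMIs the sinusoidal shares were 3.44% in the knockout and 16% in the control library, the lower counts 221 and 287, and in the control library the medians were -2.52 for MHC class II, -0.01 for interferon and 1.21 for cell cycle genes. With a minimum of 5 UMIs the shares were 0.723% and 8.55%, and 0% in the type H control. The knockout library then had 385 higher and 198 lower genes, knockout over control 71 and 136, and the classical median in the control library was -2.15. With cells thinned to 2000 UMIs the knockout share was 0.554%, the knockout lower count 98, the control counts 203 higher and 339 lower, and knockout over control 34 and 77. The classical and S100 medians in the control library were then -3.49 and -1.38. Without the granulocyte filters the neutrophil median was -2.29. Without cells holding a Cd3 UMI the type H knockout share was 0.113%. With the mean of per-cell CPM the knockout library had 301 higher genes and the control classical median was -2.05.

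With no gene minimum above 1 UMI, higher and lower counts were 1382 and 688 in the knockout library, 1642 and 819 in the control library, and 1231 and 1009 for knockout over control, with an inflammatory median of -0.26. At 50 UMIs they were 48 and 146, 86 and 194, and 58 and 105. Without F13a1-marked cells the knockout share was 0.723%, with 367 higher genes in the knockout library and 66 for knockout over control. Without either mark the share was 0.542%, with 584 higher and 139 lower genes in the knockout library, and 51 and 98 for knockout over control. In both, the control medians were -4.23 for classical, -1.34 for cell cycle and -1.25 for S100 genes. F13a1, which sets 1 of the marks, is itself in the classical list. Shares of so few cells, 2 to 10 in 3 of the libraries, limit what depth can show there.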

Other observations

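Sex-linked transcripts were read in the chosen cells as a description of the animals behind each library. In the sinusoidal knockout library 1 chosen cell had Xist and no Y-linked UMI, and 5 had Y-linked UMIs and no Xist. In the sinusoidal control library the counts were 3 and 16 cells. Chosen cells of each sex pattern were thus present in both sinusoidal libraries. In the type H knockout library 1 cell had both.

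Lysosomal genes of the chosen cells in the sinusoidal control library were near those of Lyz2-high cells, with 0 of 13 measured members at least 2-fold higher, 2 lower and a median log2 ratio of 0.00, where no test was run because the group is 1 library. The lower ones were Ctsc, which activates granule proteases, at 290 CPM in the chosen cells and 841 CPM in Lyz2-high cells, and the progranulin gene Grn at 203 and 412 CPM. Among complement genes, C5ar1, the receptor for the C5a fragment, had 79.8 and 26 CPM (3.07-fold, 1.32 to 6.78), and C3 65.3 and 211 CPM (0.31, 0.139 to 0.603). Among iron and stress genes, the heme-degrading Hmox1 had 36.3 and 98.6 CPM (0.368, 0.116 to 0.899), and the ferritin genes Fth1 and Ftl1 were abundant in both classes, at 3107 and 2589 CPM and at 7854 and 7938 CPM.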
